A study of Mus musculus with 6 samples.

Results

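The constant genes of the immunoglobulin heavy chain were followed in activated mouse B cells that lack hnRNPL, an RNA-binding protein of the heterogeneous nuclear ribonucleoprotein family that acts in splicing and other steps of RNA metabolism. The genes were *Ighm*, *Ighd*, *Ighg3*, *Ighg1*, *Ighg2b*, *Ighg2c*, *Ighe* and *Igha*, which encode the constant regions of IgM, IgD, IgG3, IgG1, IgG2b, IgG2c, IgE and IgA. They were taken by gene name and were 8 of the 55421 genes measured. RNA-seq came from 3 WT mice (*Rosa* mT/mG *CD21-cre*) and 3 hnRNPL-deficient mice, which carried *Hnrnpl* F/F in addition to *Rosa* mT/mG and *CD21-cre*, all on the C57BL6/J background. Splenic B cells of every mouse had been cultured for 24 h with 5 μg/ml of lipopolysaccharide (LPS) and 5 ng/ml of IL-4, and GFP+ cells were then sorted, giving 1 library per mouse. Both groups carried the Cre transgene and the mT/mG reporter, which turns from red to green fluorescence after Cre has acted. The CD21 (*Cr2*) promoter drives this Cre in mature B cells, and the GFP signal reports recombination of the reporter rather than loss of hnRNPL itself.

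A B cell first makes IgM and IgD from 1 long primary transcript, which holds the rearranged variable exon followed by the *Ighm* and *Ighd* exons and is processed to either mRNA by alternative splicing and polyadenylation. In class switch recombination (CSR), DNA breaks in the transcribed switch region upstream of *Ighm* and in that of a downstream gene are joined, which brings the downstream constant gene next to the variable exon. Before CSR, each downstream gene that is to be used is transcribed from its own intronic (I) promoter as a sterile germline transcript, which is spliced to the constant exons. IL-4 through STAT6 opens the *Ighg1* and *Ighe* promoters, LPS alone favours *Ighg3* and *Ighg2b*, interferon-γ favours *Ighg2c*, and TGF-β favours *Igha*. The values used here count all reads on the constant exons of a gene. Germline transcripts, mRNA of switched cells, and the membrane and secreted forms of each chain were therefore not separated. In bulk samples, fewer cells expressing a gene and less RNA per cell cannot be told apart.

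All 8 genes lie on the minus strand of chromosome 12 (GRCm38) in 1 row, and GENCODE annotates each as an immunoglobulin constant gene whose models start at the first constant exon. *Ighm* (chr12:113418558-113422730) is followed by *Ighd* (chr12:113406604-113416324), which starts 6.41 kb downstream of the start of *Ighm*. The gamma genes come next, in the order *Ighg3* (chr12:113356224-113361232), *Ighg1* (chr12:113325240-113330523), *Ighg2b* (chr12:113302965-113307933) and *Ighg2c* (chr12:113285325-113288932). *Ighe* (chr12:113269260-113273248) and *Igha* (chr12:113254830-113260236) close the row, with *Igha* 162 kb from the start of *Ighm*.

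The deposited values were gene counts divided by a size factor for each library, called normalized read counts below. The libraries held between 40395186 and 75180749 reads on genes. The targeted gene *Hnrnpl* had 24371, 25580 and 24174 normalized read counts in WT libraries 1, 2 and 3 and 2178, 1519 and 1297 in hnRNPL-deficient libraries 1, 2 and 3, so that 6.74% of the mean WT level was left. The summed level of 8 B cell markers was between 292934 and 366208 in WT and between 289118 and 332601 in hnRNPL-deficient libraries, while 6 T cell markers summed to 19.7 to 27.7 in WT and 28.3 to 38.4 in hnRNPL-deficient libraries. The sum of 7 myeloid markers was 260 to 331 in WT and 1239 to 1382 in hnRNPL-deficient libraries. *Adgre1* made up most of it, at 236 to 315 in WT and 1217 to 1369 in hnRNPL-deficient libraries, and was called higher (log2 fold change 2.24, adjusted p = 0.000139 from limma). *Lyz2*, *Cd14*, *S100a8* and *S100a9* were at or near 0 in every library. *Itgam* was not called (log2 fold change -0.07, adjusted p = 0.951 from limma). *Csf1r* was too low to be tested, at 1.73 to 5.80 in WT and 2.02 to 6.85 in hnRNPL-deficient libraries. The summed level of 4 NK cell markers was 0 to 2.29 in WT and 3.03 to 9.02 in hnRNPL-deficient libraries. That of 5 erythroid markers was 17.6 to 38.3 in WT and 55.0 to 84.8 in hnRNPL-deficient libraries. *Hbb-bt* was called higher (log2 fold change 1.82, adjusted p = 0.0235 from limma). *Hbb-bs* was not called (log2 fold change 1.52, adjusted p = 0.110 from limma). *Hba-a1* and *Hba-a2* lay the other way, each with a mean of 2.63 in WT and 1.24 in hnRNPL-deficient libraries. Along with *Alas2* they were too low to be tested, and their groups overlapped. The low sums of T cell, myeloid, NK cell and erythroid markers did not overlap between the groups. Their part in the values of the constant genes was not tested.

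Of the 6 constant genes downstream of *Ighd*, 5 were lower in hnRNPL-deficient cells, whereas *Ighm*, *Ighd* and *Igha* did not meet the criteria for a change. *Ighg3*, *Ighg1*, *Ighg2b*, *Ighg2c* and *Ighe* fell to between 28.1% and 49.8% of their mean WT level. Genes were called at an adjusted p under 0.1 (Benjamini-Hochberg over 17640 genes whose mean reached 10 normalized read counts) from limma on log2(normalized read count + 1), with a change of at least 1.5-fold. By this rule 5 of the 8 genes were called lower and 0 higher, where 4.08% of all genes tested were called lower, 7.28% higher and 11.4% in either direction. At the same adjusted p without a minimum fold, *Ighd* was added, giving 6 of 8 lower against 7.97% of all genes. The values of the 3 WT and 3 hnRNPL-deficient libraries did not overlap for 7 of the 8 genes, 6 of them lower and *Ighm* higher. Over all genes tested, 34% did not overlap, 16.3% with lower and 17.7% with higher values in hnRNPL-deficient cells. Count models on the whole reads of 5 libraries, without hnRNPL-deficient library 2, also called the 5 genes lower and 0 higher. Over all 17640 genes, edgeR called 3.28% lower and 1144 genes higher, and DESeq2 4.09% lower and 1180 genes higher. At an unadjusted p under 0.05 from limma, 0 of the 8 were higher as well. The share of all genes at that unadjusted p was not counted.

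**Figure D1:**
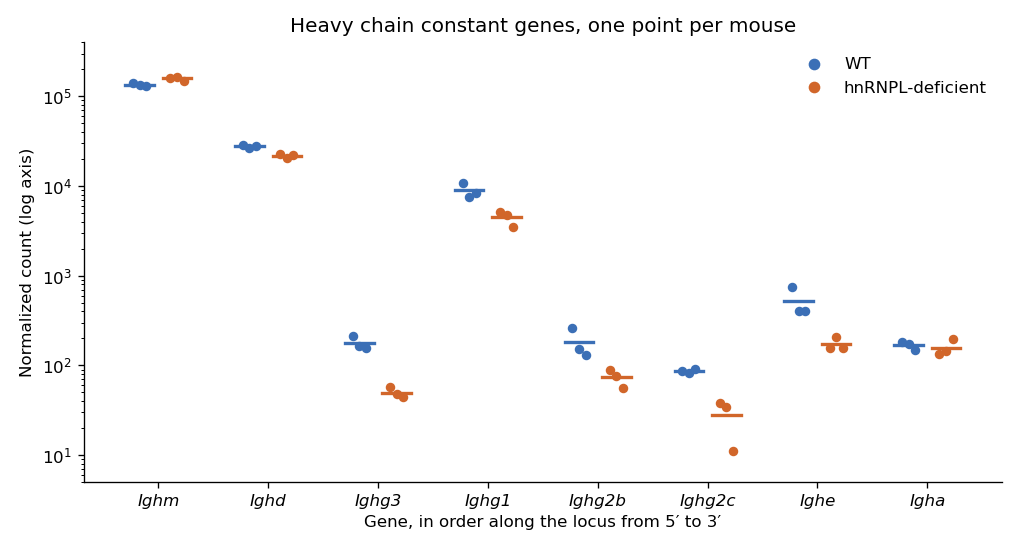
Normalized read counts of the 8 heavy chain constant genes on a log axis, in their order along the locus. Each point is 1 mouse and each bar the mean of 3 mice, in blue for WT and orange for hnRNPL-deficient. The orange points lie below all blue points for 6 genes, above them for *Ighm*, and among them for *Igha*.

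*Ighm*, the first constant gene of the locus and the one every naive B cell uses, had 139838, 134701 and 130295 normalized read counts in WT and 160816, 164486 and 149738 in hnRNPL-deficient libraries. All hnRNPL-deficient values were above all WT values, and their mean was 17.3% higher. On the log2 scale the difference was 0.23 (standard error 0.112, 95% interval -0.03 to 0.49, adjusted p = 0.224 from limma), which did not pass the test. The gap depended somewhat on the scaling of the libraries. As a percentage of all gene counts in its library, *Ighm* stood at 0.226% ± 0.00102 in WT cells and 0.275% ± 0.00682 in hnRNPL-deficient cells (SD, n = 3), 21.9% higher.

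*Ighd* was lower in hnRNPL-deficient cells, although it shares its primary transcript with *Ighm*. Its normalized read counts were 28610, 26809 and 28142 in WT and 22737, 20313 and 21997 in hnRNPL-deficient libraries, with no overlap and a mean 22.2% lower. The log2 fold change was -0.36 (standard error 0.0927, 95% interval -0.57 to -0.15, adjusted p = 0.0402 from limma). The change was under 1.5-fold, so *Ighd* was not called. The ratio of *Ighm* to *Ighd* reads was 4.89, 5.02 and 4.63 in WT and 7.07, 8.10 and 6.81 in hnRNPL-deficient libraries. This ratio needs no scaling of the libraries, and each hnRNPL-deficient library had a higher one than any WT library. The difference in log2 ratio of *Ighd* to *Ighm* was -0.59 (exact two-sided permutation p = 0.1, the smallest that 3 against 3 mice allow, and 0.117 adjusted over 7 ratios).

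*Ighg1* encodes the constant region of IgG1, the main isotype to which LPS and IL-4 direct mouse B cells, and it had by far the most reads of the downstream genes. It had 10887, 7635 and 8385 normalized read counts in WT and 5160, 4698 and 3529 in hnRNPL-deficient libraries. The WT libraries spread over a wider range than the hnRNPL-deficient ones, and the lowest WT library was still above the highest hnRNPL-deficient library. The log2 fold change was -1.01 (standard error 0.174, 95% interval -1.41 to -0.61, adjusted p = 0.00931 from limma), a mean 50.2% lower. Relative to *Ighm* the gap was wider, with 15.3 ± 2.40 reads of *Ighm* per read of *Ighg1* in WT cells and 36.2 ± 5.72 in hnRNPL-deficient cells (SD, n = 3). Without any 1 library the log2 fold change of *Ighg1* lay between -1.12 and -0.85.

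*Ighe*, the IgE constant gene, is the other IL-4-dependent gene of the locus. It had 750, 407 and 408 normalized read counts in WT and 158, 207 and 155 in hnRNPL-deficient libraries. WT library 1 stood apart on the high side, as it did for *Ighg1*, *Ighg2b* and *Ighg3*, yet the other WT libraries were also above every hnRNPL-deficient one. The log2 fold change was -1.53 (standard error 0.263, 95% interval -2.14 to -0.93, adjusted p = 0.00904 from limma). Without WT library 1 or any other single library, the log2 fold change of *Ighe* lay between -1.68 and -1.24, and it was called each time.

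*Ighg3*, *Ighg2b* and *Ighg2c* encode the remaining gamma chains, and all were low genes in these cultures. *Ighg3* had 210, 163 and 154 normalized read counts in WT and 56.8, 47.5 and 43.9 in hnRNPL-deficient libraries. The groups were far apart, with the lowest WT library well above the highest hnRNPL-deficient one, and its log2 fold change was -1.81 (standard error 0.235, 95% interval -2.34 to -1.27, adjusted p = 0.00298 from limma). *Ighg2b* had 262, 153 and 129 normalized read counts in WT and 89.3, 75.7 and 56.2 in hnRNPL-deficient libraries. WT library 1 was far above the other WT libraries, which were still above every hnRNPL-deficient one, and its log2 fold change was -1.25 (standard error 0.313, 95% interval -1.96 to -0.53, adjusted p = 0.0378 from limma). *Ighg2c*, which C57BL/6 mice carry where other strains have *Ighg2a*, had 87.0, 81.3 and 90.2 normalized read counts in WT and 37.9, 34.3 and 10.97 in hnRNPL-deficient libraries. The last of these stood for 8 reads in the shallowest library. Its log2 fold change was -1.78 (standard error 0.448, 95% interval -2.80 to -0.76, adjusted p = 0.0383 from limma), and without WT library 3 the adjusted p was 0.126 and *Ighg2c* was no longer called. The 95% intervals of the 5 called genes overlapped each other, and differences between their log2 fold changes were not tested in the model.

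*Igha*, the last gene of the row, encodes the IgA constant region. It had 181, 171 and 148 normalized read counts in WT and 133, 145 and 195 in hnRNPL-deficient libraries. The highest and the lowest library were both hnRNPL-deficient, and the groups overlapped. The log2 fold change was -0.10 (standard error 0.214, 95% interval -0.59 to 0.39, adjusted p = 0.803 from limma). The interval is wide, so equal levels were not shown.

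**Figure D2:**
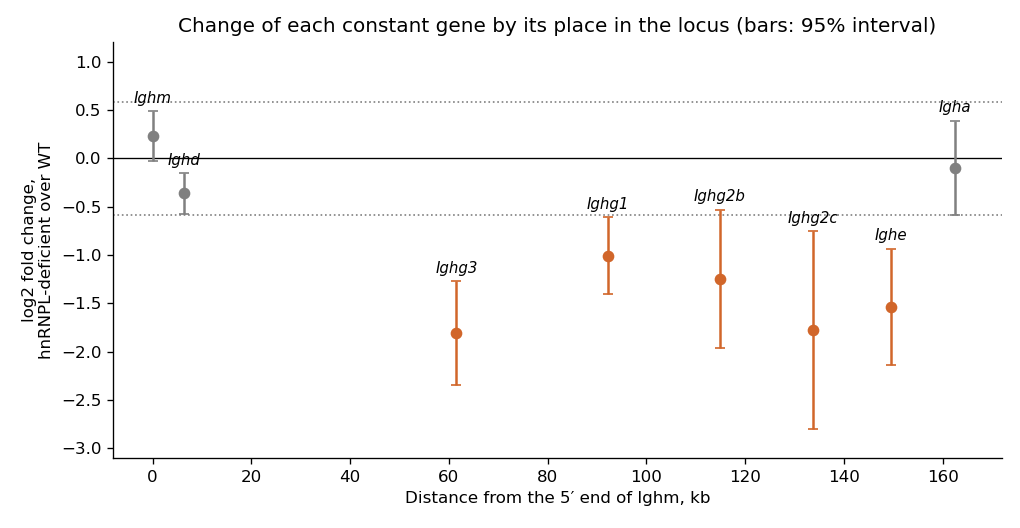
Log2 fold change of each constant gene in hnRNPL-deficient over WT cells, against the distance of its start from the start of *Ighm* in kb. Points are limma estimates from 3 mice a group, bars their 95% intervals, orange the genes called lower, grey the others, and dotted lines a 1.5-fold change. The 5 orange genes lie between *Ighd* and *Igha*, with estimates from -1.81 for *Ighg3* to -1.01 for *Ighg1*.

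The gamma genes arose by duplication, and the sequences below show how far reads could tell them apart. They come from the GENCODE transcripts on GRCm38, which represents the C57BL/6J strain, and are written 5′ to 3′ on the minus strand. No stretch of 100 bases, the length of 1 read, in any of the 8 genes occurred in another of them or in a transcript of any other gene. Allowing 2 mismatches, 7.87% of such stretches of *Ighg2b*, 14.7% of *Ighg2c* and 1.74% of *Ighg3* matched another gamma gene, and 0 matched *Ighg1*. The longest run shared by a pair of gamma genes was between 37 and 88 bases, against 11 to 15 bases for all other pairs. Reads are paired, so a fragment covers more than 1 such stretch. The small values of *Ighg2b*, *Ighg2c* and *Ighg3* may still hold some reads of each other.

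The hinge exon, the flexible link between the arms and the stem of the antibody, differs in length and sequence among the gamma genes. In the sequences that follow, capitals mark the in-frame cysteine codons, through which the heavy chains of an antibody are bonded together. *Ighg1* and *Ighg2b* had 4 such codons, *Ighg2c* 3 and *Ighg3* 1, in exons of 39, 66, 63 and 48 bases.
Ighg3 (chr12:113360529-113360576): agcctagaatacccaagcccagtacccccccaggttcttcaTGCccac
Ighg1 (chr12:113329844-113329882): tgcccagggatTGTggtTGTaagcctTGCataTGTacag
Ighg2b (chr12:113307261-113307326): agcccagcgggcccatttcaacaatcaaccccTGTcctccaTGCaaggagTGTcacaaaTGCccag
Ighg2c (chr12:113288263-113288325): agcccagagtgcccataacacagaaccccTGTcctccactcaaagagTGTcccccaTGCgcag

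The first membrane exon, used only in the membrane form that serves as the B cell receptor, has the same length in all of the gamma genes. Its 131 bases differed at 18 positions among the 4 genes, which are in capitals below. The pair *Ighg2b* and *Ighg2c* differed at 5 of them and the pair *Ighg1* and *Ighg2c* at 14.
Ighg3 (chr12:113358070-113358200): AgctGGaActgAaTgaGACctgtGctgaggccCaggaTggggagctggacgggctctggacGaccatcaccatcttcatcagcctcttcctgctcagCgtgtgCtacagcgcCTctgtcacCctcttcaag
Ighg1 (chr12:113327442-113327572): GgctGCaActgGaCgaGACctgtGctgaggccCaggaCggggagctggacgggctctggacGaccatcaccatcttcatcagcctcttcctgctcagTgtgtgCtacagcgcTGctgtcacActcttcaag
Ighg2b (chr12:113304909-113305039): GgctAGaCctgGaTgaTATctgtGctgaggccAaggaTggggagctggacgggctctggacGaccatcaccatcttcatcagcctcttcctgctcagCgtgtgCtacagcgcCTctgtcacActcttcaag
Ighg2c (chr12:113285912-113286042): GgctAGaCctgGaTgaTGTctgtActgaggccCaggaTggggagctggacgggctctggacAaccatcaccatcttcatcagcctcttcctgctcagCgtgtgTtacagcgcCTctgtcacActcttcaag

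Levels of different genes were compared per kb of exon. *Ighm* was the highest in every library, followed by *Ighd*, *Ighg1* and *Ighe*, with no overlap between neighbours in this order within either group. In WT these levels were 71551 ± 2532, 14660 ± 492, 3460 ± 657 and 329 ± 125 normalized read counts per kb of exon (SD, n = 3). The 4 remaining genes could not be ordered in WT, where *Ighg3*, *Ighg2b*, *Ighg2c* and *Igha* all lay between 48.3 and 97.9 per kb and changed places from library to library. In hnRNPL-deficient cells *Igha* came next after *Ighe* in every library, with 49.7 to 73.0 normalized read counts per kb. *Ighg3*, *Ighg2b* and *Ighg2c* lay between 8.27 and 33.3 per kb there, with overlap among them.

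The make-up of the heavy chain constant counts was then compared as shares, in which the scaling of a library cancels. *Ighm* took 77.3%, 79.2% and 77.7% of the counts of the 8 genes in WT and 85.0%, 86.6% and 85.2% in hnRNPL-deficient libraries. Its share was thus 7.53 percentage points larger, which is more than the whole range within either group. *Ighd* held 16.1% ± 0.570 in WT cells and 11.7% ± 0.944 in hnRNPL-deficient cells, and *Ighg1* 5.17% ± 0.780 and 2.40% ± 0.364 (SD, n = 3). The 6 downstream genes together made up 6.84%, 5.06% and 5.55% in WT and 2.98%, 2.74% and 2.27% in hnRNPL-deficient libraries. The mean difference was -3.16 percentage points for their sum and -4.38 points for *Ighd*.

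Each of the remaining downstream genes held under 0.5% of the counts. *Ighe* held 0.299% ± 0.100 in WT cells and 0.0935% ± 0.0136 in hnRNPL-deficient cells, *Ighg3* 0.101% ± 0.0130 and 0.0267% ± 0.00292, *Ighg2b* 0.104% ± 0.0361 and 0.0397% ± 0.00760, and *Ighg2c* 0.0499% ± 0.00338 and 0.0148% ± 0.00745 (SD, n = 3). These 4 shares did not overlap between the groups. *Igha* held 0.0964% ± 0.00690 in WT cells and 0.0858% ± 0.0219 in hnRNPL-deficient cells, with overlap. For every share but that of *Igha*, the exact two-sided permutation p was 0.1, the smallest that 3 against 3 mice allow (0.1125 adjusted over 9 shares), and for *Igha* it was 0.4. Shares are tied, since they sum to 100%. Counting error was small beside the spread between mice for the large genes, with 95% Wilson intervals of at most 0.208 percentage points to either side for *Ighm*. The intervals cover counting error only.

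**Figure D3:**
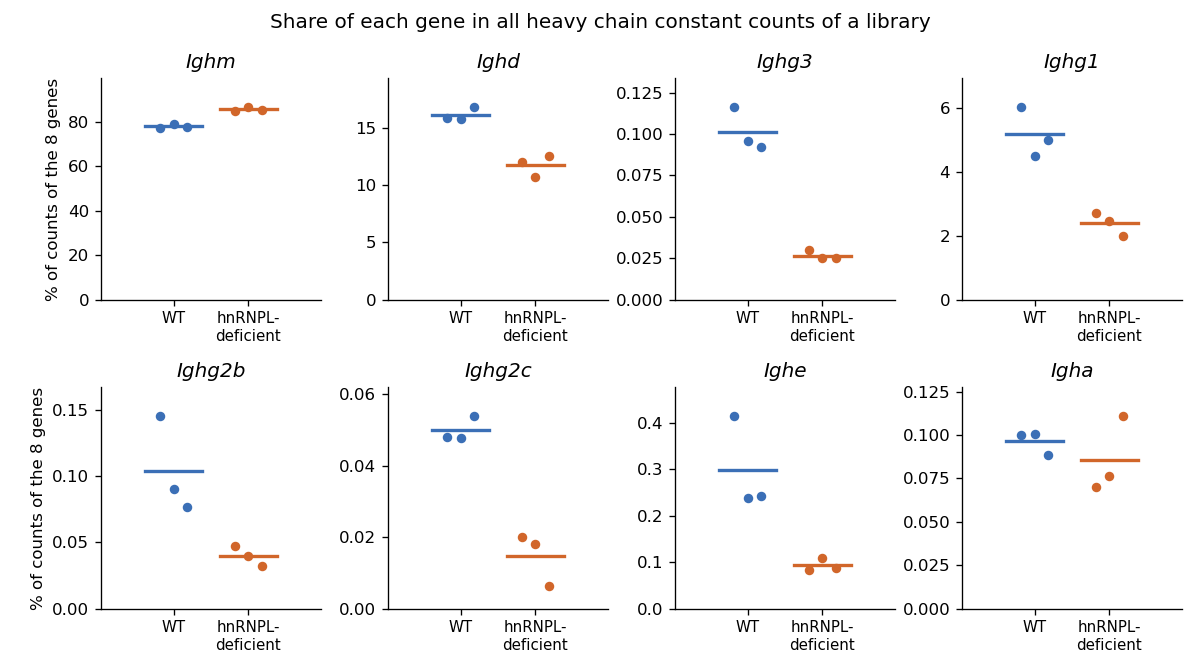
Share of each constant gene in the counts of all 8 genes, in percent, with a separate axis from 0 for each gene. Each point is 1 mouse, in blue for WT and orange for hnRNPL-deficient, and each bar the mean of 3. *Ighm* stood at 78.1% in WT cells and 85.6% in hnRNPL-deficient cells on average, and every other panel except that of *Igha* shows the orange points below the blue ones.

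The summed level of the locus differed less than its make-up. The 8 genes together had 180825, 170121 and 167753 normalized read counts in WT and 189187, 190007 and 175725 in hnRNPL-deficient libraries, which overlapped. The mean difference of *Ighm*, 23402 normalized read counts, was larger in size than those of *Ighd* (-6171) and of the 6 downstream genes (-5157) put together. As a part of all gene counts in the library, the 8 genes made up 0.289% ± 0.00341 in WT cells and 0.321% ± 0.00490 in hnRNPL-deficient cells (SD, n = 3). On this scale their sum was 11.1% higher in hnRNPL-deficient cells and the groups did not overlap.

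Each gene was also set against *Ighm*, the most upstream and most abundant of them. The differences in log2 ratio were -2.06 for *Ighg3*, -2.06 for *Ighg2c*, -1.77 for *Ighe*, -1.49 for *Ighg2b* and -1.24 for *Ighg1*. For each of these 5 genes the WT and hnRNPL-deficient ratios did not overlap (exact two-sided permutation p = 0.1, 0.117 adjusted over 7 ratios). For *Igha* the difference in log2 ratio was -0.33, with overlapping groups (exact permutation p = 0.4).

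Among the 6 downstream genes themselves, *Ighg1* held nearly the same place in both groups. It made up 88.0%, 88.7% and 90.02% of their counts in WT and 91.6%, 90.2% and 88.5% in hnRNPL-deficient libraries (exact two-sided permutation p = 0.4). *Ighe* held 5.05% ± 0.887 in WT cells and 3.55% ± 0.653 in hnRNPL-deficient cells, *Ighg3* 1.75% ± 0.123 and 1.01% ± 0.0941, and *Ighg2c* 0.872% ± 0.147 and 0.535% ± 0.226 (SD, n = 3). These 3 shares were lower without overlap. For *Ighg2c* the gap was narrow, with 0.703% in WT library 1 and 0.672% in hnRNPL-deficient library 1, from 75 and 42 reads. With *Ighg1* left out of the sum, the exact permutation p of *Ighg2c* was 0.4. Without WT library 2 or WT library 3 it was 0.3. *Igha* was the counterpart, with 1.46%, 1.99% and 1.59% in WT and 2.35%, 2.79% and 4.88% in hnRNPL-deficient libraries. For *Ighe*, *Ighg3*, *Ighg2c* and *Igha* the exact permutation p was 0.1, the smallest possible (0.15 adjusted over 6 shares), and for *Ighg2b*, at 1.76% and 1.48%, it was 0.4.

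**Figure D4:**
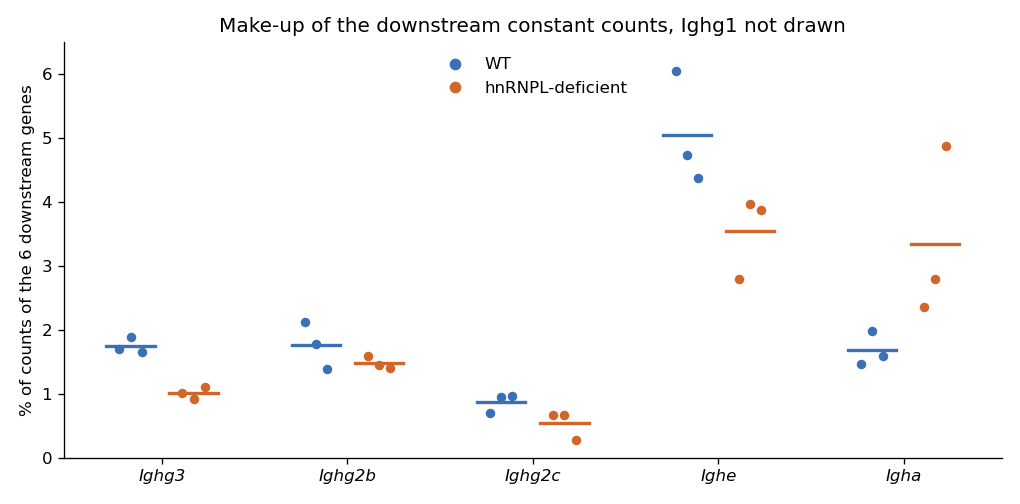
Shares of 5 downstream genes in the counts of the 6 genes downstream of *Ighd*, in percent. *Ighg1*, at 88.0% to 91.6%, is not drawn. Points are mice and bars means of 3, with WT in blue and hnRNPL-deficient in orange. *Igha* is the gene with orange points above the blue ones, and *Ighe*, *Ighg3* and *Ighg2c* have them below.

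Genes that control germline transcription were taken as a list of 31, which includes cytokine and Toll-like receptors, their signalling proteins, and transcription factors that bind I promoters or the 3′ enhancers. Of these, 1 was called higher and 1 lower, or 6.45% in either direction where 11.4% of all genes were called, and the median log2 fold change was -0.12, where that of all genes tested was -0.03. Whatever the fold, 8 of the 31 were lower and 3 higher with no overlap between the groups. Over all genes tested these shares were 16.3% and 17.7%. At an adjusted p under 0.1 from limma without a minimum fold, 6 of the 31 passed, where 7.97% of all genes were lower at that threshold. They were *Bcl6*, which was higher, and *Runx3*, *Batf*, *Myd88*, *Tlr4* and *Rela*, which were lower. *Il4ra*, the IL-4 receptor chain, had a log2 fold change of -0.17 (adjusted p = 0.375 from limma). *Stat6*, which carries the IL-4 signal to the *Ighg1* and *Ighe* promoters, had one of -0.26 (adjusted p = 0.115 from limma), with the 3 hnRNPL-deficient libraries, at 5007, 5509 and 4760 normalized read counts, below the WT ones at 5923, 6342 and 6040. *Bcl6*, a repressor that can bind STAT6 sites, was higher by 0.64 on the log2 scale (adjusted p = 0.0111 from limma). *Bcl6* was 0.56 higher, under 1.5-fold, without WT library 1. *Tlr4*, the receptor for LPS, was lower, with a log2 fold change of -0.68 (adjusted p = 0.0969 from limma). *Tlr4* was called in 8 of 18 alternatives, and the call was lost when any 1 of WT libraries 1 and 2 and hnRNPL-deficient libraries 2 and 3 was left out, with adjusted p between 0.158 and 0.228.

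Of 48 tested genes for the recombination step of CSR, limma called 0 higher and 4 lower, where 7.28% of all genes were called higher and 4.08% lower. The median log2 fold change of the list was -0.14. Whatever the fold, 15 of the 48 were lower and 5 higher with no overlap between the groups, against 16.3% and 17.7% of all genes. At an adjusted p under 0.1 from limma without a minimum fold, 11 of the 48 passed, where 7.97% of all genes were lower at that threshold. *Shld2* was higher among these 11 and the others were lower. At an unadjusted p under 0.05 from limma, 2 were higher, and the share of all genes at that p was not counted. The count model edgeR called 1 of the 48 higher and DESeq2 0, where they called 1144 and 1180 of all 17640 genes higher. The 4 lower genes were *Ung* (-0.79), the glycosylase that removes uracil from DNA, *Exo1* (-0.82), an exonuclease of mismatch repair, *Rad50* (-0.86), a subunit of the MRN complex at DNA breaks, and *Atm* (-0.64), the kinase that MRN activates (log2 fold changes, adjusted p from limma between 0.00265 and 0.0225). *Atm* was called in 13 of 18 alternatives and was under 1.5-fold in the others, at -0.54 without WT library 1, -0.58 with equal library totals and -0.49 with quantile normalization, while its adjusted p stayed at or below 0.0375.

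Of 15 genes for heavy chain mRNA processing and stability, limma called 1 lower and 0 higher, or 6.67% in either direction against 11.4% of all genes, with a median log2 fold change of -0.16. At an unadjusted p under 0.05 from limma, 1 was higher, and the share of all genes at that p was not counted. Both edgeR and DESeq2 called 0 of the 15 higher, where they called 1144 and 1180 of all 17640 genes higher. Whatever the fold, 5 of the 15 were lower and 2 higher with no overlap between the groups, against 16.3% and 17.7% of all genes. *Zfp318*, a nuclear factor needed for IgD because it prevents the primary transcript from ending before the *Ighd* exons, had a log2 fold change of 0.18 (adjusted p = 0.219 from limma). Its values of 8015, 7849 and 7602 normalized read counts in hnRNPL-deficient libraries were all above the 6740, 6849 and 7166 of WT. A link between the levels of *Zfp318* and *Ighd* was not tested. *Ell2*, an elongation factor that favours the secreted form of heavy chain mRNA, had 0.37 (adjusted p = 0.162 from limma). The gene called lower was *Tent5c*, a poly(A) polymerase that lengthens the tails of immunoglobulin mRNA, at 845, 786 and 883 in WT and 263, 267 and 159 normalized read counts in hnRNPL-deficient libraries (log2 fold change -1.90, adjusted p = 0.00162 from limma).

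Of 12 partner chains and receptors, 2 were called higher and 1 lower, where 7.28% of all genes were called higher and 4.08% lower, with a median log2 fold change of -0.02. Whatever the fold, 3 of the 12 were lower and 3 higher with no overlap between the groups, against 16.3% and 17.7% of all genes. *Igkc*, the kappa light chain that pairs with most mouse heavy chains, had a log2 fold change of 0.00 (95% interval -0.27 to 0.26, adjusted p = 0.992 from limma). The lambda chains *Iglc1* (1.66, adjusted p = 3.34e-05 from limma) and *Iglc2* (0.74, adjusted p = 0.00403 from limma) were higher on the log2 scale. *Iglc3*, the third lambda constant gene of the list, lay in the opposite direction, at 6687, 8210 and 7620 normalized read counts in WT and 4957, 5918 and 4564 in hnRNPL-deficient libraries (log2 fold change -0.55, adjusted p = 0.0285 from limma). The groups did not overlap for *Iglc3*, which was under 1.5-fold and not called. *Iglc1* had 3477, 3718 and 3576 normalized read counts in WT and 11723, 11259 and 11147 in hnRNPL-deficient libraries. Lambda constant genes resemble each other closely, and reads could be shared between them, so the value of each single gene is uncertain. *Jchain*, the joining chain of secreted IgM and IgA and a marker of plasma cells, had 117, 109 and 26.001 normalized read counts in WT and 23.4, 7.07 and 13.7 in hnRNPL-deficient libraries. Its log2 fold change was -2.31 (adjusted p = 0.0509 from limma), and with any 1 of WT libraries 1 and 2 and hnRNPL-deficient libraries 2 and 3 left out the adjusted p was between 0.111 and 0.1495. *Jchain* was called in 11 of the 17 alternatives that kept it.

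**Figure D5:**
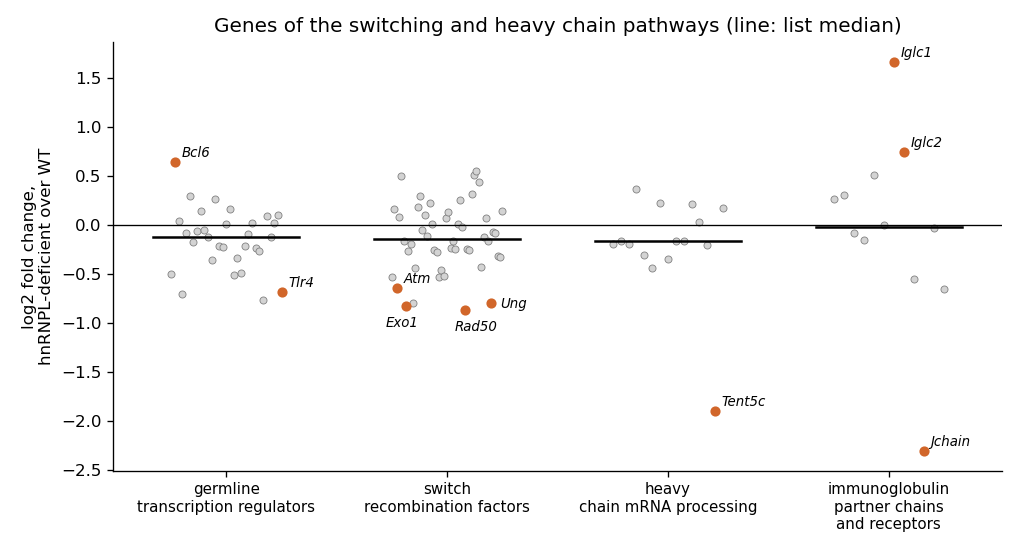
Log2 fold change in hnRNPL-deficient over WT cells for the genes of 4 lists (31, 48, 15 and 12 genes). Points are genes, orange and named where called by limma in 3 against 3 mice, and black lines are list medians, which lie between -0.16 and -0.02. Most genes of every list were not called.

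Most markers of B cell subsets were not called. Of 8 plasma cell markers limma called 1 lower (*Jchain*) and 0 higher, where 4.08% of all genes were called lower and 7.28% higher. *Tnfrsf17* was too low to be tested. *Tnfrsf13b* was lower without overlap but under 1.5-fold (log2 fold change -0.40, adjusted p = 0.0342 from limma). *Sdc1*, *Prdm1*, *Xbp1*, *Irf4* and *Mzb1* had log2 fold changes between -0.14 and -0.03 with overlap, and none was called (adjusted p of at least 0.766 from limma). The sum of the 8 was 58016 to 66265 in WT and 51820 to 56147 in hnRNPL-deficient libraries, without overlap. Most of it came from *Tnfrsf13b*, *Irf4* and *Xbp1*, with means of 24437, 20349 and 13882 in WT and 18507, 19339 and 13488 in hnRNPL-deficient libraries. Of 7 marginal zone B cell markers, *Cr2* (log2 fold change 0.85, adjusted p = 0.0444) and *Cd1d1* (1.62, adjusted p = 0.00943) were called higher and *Dtx1* (-1.94, adjusted p = 0.000781) lower by limma, where 7.28% of all genes were called higher and 4.08% lower. *S1pr3* was lower without overlap but under 1.5-fold (log2 fold change -0.43, adjusted p = 0.0198 from limma). The summed level of the 7 marginal zone markers overlapped between the groups, at 15653 to 17184 in WT and 13310 to 17794 in hnRNPL-deficient libraries. *Cr2* is also the gene whose promoter drives the Cre of both groups. Marginal zone cells are known for early IgM secretion, and the part of a shift in subsets in the values of the constant genes was not tested.

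The genes with a pattern most like that of *Ighg1* were ranked by Pearson correlation of log2(normalized read count + 1) over the 6 libraries, among 13874 genes whose mean reached 50 normalized read counts. They were *Dlgap5* (0.998), *Rad54l* (0.997), *Tpm3* (0.997), *Gm8741* (0.996) and *Chaf1b* (0.996), and 414 genes had a correlation above 0.95. *Dlgap5* is a spindle protein, *Rad54l* acts in homologous recombination and *Chaf1b* is a subunit of a histone chaperone used in DNA replication. Like *Ighg1*, *Dlgap5* was highest in WT library 1, at 1611 normalized read counts against 1221 and 1249, and lowest in hnRNPL-deficient library 3, at 548 against 777 and 710. For *Ighm* the most alike genes were *Retsat* (0.996), *Plpp3* (0.995), *Taf6* (0.991), *Mfge8* (0.991) and *Mmut* (0.990), with 149 genes above 0.95. These correlations describe 6 points in 2 groups, so a difference between the groups in the same direction raises the score by itself.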

How the data were processed

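Poly(A) RNA of sorted GFP+ B cells was sequenced as paired 100-base reads. The authors trimmed the reads (fastp 0.23.1), aligned them to mm10 (STAR 2.7.9a), counted them per gene by strand (featureCounts) and divided the counts by DESeq2 1.38.2 size factors. The deposited values are these normalized counts, a signal with decimals. In each library 100% of the values were whole multiples of the smallest within 0.01 reads, which gave the number of reads. The authors' columns of mean, log2 fold change, standard error, test statistic and p-values were not used.

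Groups came from the labels. Each library is 1 mouse, and p-values measure the spread between these 6 libraries. Log2(normalized count + 1) was tested with limma 3.58.1 with a mean-variance trend in R 4.3.3, for 17640 genes whose mean reached 10 normalized counts. The added 1 understates changes of low genes. A gene was called at a Benjamini-Hochberg adjusted p below 0.1 with a change of at least 1.5-fold. Shares and ratios were compared with exact two-sided permutation tests, which cannot go below 0.1 (Python 3.11.15, scipy 1.17.1). edgeR 4.0.16 and DESeq2 1.42.0 were added after seeing the data, on 5 libraries. Left out was hnRNPL-deficient library 2, whose smallest value is near 1 and which an automatic check did not take as counts. By the multiples described above, its values were whole reads as well. On simulated data with 200 changed genes among 17640, limma called 87 of 100 genes changed 2-fold and 98 of 100 changed 4-fold, with 16 false calls. Beyond counting error, the simulation gave every gene the same relative spread between libraries, smaller than that of *Ighg2b* and *Ighe* in WT. Its figures therefore do not give the power or the false calls of limma in these data.

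Exon lengths, positions and sequences come from GENCODE on GRCm38, a release older than the authors', which matched 55240 of 55421 gene identifiers. The constant genes and the pathway and marker lists were chosen with earlier results of these data known. All 8 constant genes are named. From each pathway list the called genes are named, at most 6 by adjusted p, and *Stat6*, *Il4ra*, *Zfp318*, *Ell2*, *Igkc* and *Jchain* in any case. For *Ighg1* and *Ighm*, the 5 most correlated genes are named. *Pagr1a* of the recombination list was too low to be tested, and 1 further gene of that list is not reported here. Alternatives were other pseudocounts, filters, scalings, variance settings, denominators and reference genes, the replicate number as a block, and each library left out.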

Additional observations from a re-analysis of the deposited data

How the results depend on the processing

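The calls of *Ighg3*, *Ighg1*, *Ighg2b* and *Ighe* held in 18 of 18 alternatives, and that of *Ighg2c* in 17 of 18, all but the fit without WT replicate 3 (log2 fold change -1.74, adjusted p = 0.126). *Ighm*, *Ighd* and *Igha* were called in 0 of 18. The adjusted p of *Ighm* ranged from 0.0469 (quantile normalization) to 0.456 and that of *Ighd* from 0.0111 to 0.162. The log2 fold change of *Igha* turned to 0.0097 with edgeR and ranged from -0.26 to 0.017 with 1 library left out. With *Ighm* left out of the sum, the differences in share turned for *Ighd* (7.92 percentage points) and *Igha* (0.155 points), and the log2 ratio of *Igha* to *Ighd* was 0.26 higher in hnRNPL-deficient cells. These follow from the changed denominators.

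Among the lists, equal library totals gave 0 lower regulators of germline transcription (median -0.065) and 1 higher recombination factor, as edgeR did (1 higher). Quantile normalization gave medians of -0.052 for the regulators and -0.066 for mRNA processing and 2 lower partner chains or receptors, as did DESeq2 (2 lower). With 1 library left out, regulators called higher ranged from 0 to 1 and lower from 0 to 2 (median -0.19 to -0.069), recombination factors called higher from 0 to 1, and partners called lower from 0 to 1 (median -0.024 to 0.18). The cause was not tested. Without WT replicate 3, 830 genes were called higher and 478 lower over all genes, against 1284 and 719.

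Same-numbered libraries of the groups had correlations of 0.429, 0.320 and 0.0663 in their deviations from the group means. The other pairs ranged from -0.458 to 0.305, the highest being WT replicate 3 with hnRNPL-deficient replicate 2. The labels give only a replicate number, and whether same-numbered libraries were handled together was not tested. With the replicate number as a block, 1755 genes were called higher and 1018 lower, 2 regulators and 2 partners were lower, and the 5 constant genes stayed called. The paired sign-flip test of shares and ratios cannot go below 0.25 with 3 pairs. Depth limits *Ighg2c*, *Ighg3* and *Ighg2b* most, with 8, 32 and 41 reads in their lowest libraries.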

Other observations

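The heavy chain variable genes, 185 in the table of which 147 had any read, summed to 18875, 17505 and 16820 normalized counts in WT and 20827, 19667 and 18367 in hnRNPL-deficient libraries, which overlapped. The constant genes had 9.76 ± 0.200 counts for each variable gene count in WT cells and 9.44 ± 0.310 in hnRNPL-deficient cells (SD, n = 3). The kappa variable genes summed to 37469 ± 1885 in WT cells and 37484 ± 1578 in hnRNPL-deficient cells. The 3 lambda variable genes summed to 2376, 2806 and 2648 in WT and 5265, 5216 and 5481 in hnRNPL-deficient libraries, without overlap. These sums were chosen after the values of the constant genes were seen and were not tested.

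Beyond *Igha*, on the 3′ side of the locus, *Crip2*, a gene for a LIM domain protein, had 31.3, 20.8 and 33.6 normalized counts in WT and 170, 133 and 133 in hnRNPL-deficient libraries (log2 fold change 2.33, adjusted p = 0.00214 from limma). Its neighbours *Crip1* (0.64, adjusted p = 0.144 from limma) and *Tedc1* (-0.29, adjusted p = 0.334 from limma) were not called on the same log2 scale. These neighbours were also chosen after the data were seen.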
